A study of Homo sapiens with 4 samples.

Results

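HepG2-Twist1 cells were set against HepG2-vector cells through the 278 miRNAs that reached an intensity of 32 or more in at least 1 of these lines in the authors' normalized values, out of 1212 human miRNAs with a probe on the array. HepG2 is an established line from a human liver cancer. HepG2-Twist1 was HepG2 transfected with the plasmid pcDNA-Twist1. HepG2-vector is the control by its title, while its construct is labelled none. Total RNA of HepG2-vector carried the dye Cy3, total RNA of HepG2-Twist1 carried Cy5, and both were hybridised together to 1 array with 3 repeat spots per miRNA. There was 1 sample of each line and no array of this pair with the dyes exchanged. Line and dye therefore cannot be told apart, and there was no test between the lines. A second array held HepG2-Twist1/Bcl-2 in Cy3 and HepG2-Bcl-2 in Cy5, also 1 sample each. It enters only where Bcl-2 or both arrays are named. The number of clones behind each line is not given in the sources used here, and the array does not measure TWIST1 mRNA.

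Twist1 is a transcription factor known for driving epithelial-mesenchymal transition (EMT), in which epithelial cells lose their junctions and become motile. A miRNA guides a silencing complex to target transcripts mainly through its seed, bases 2 to 8 from the 5′ end, so miRNAs with the same seed form a family with overlapping targets. Many miRNAs are cut from a shared primary transcript, which lets members of 1 transcript be compared side by side.

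The sequences below are those on which the comparison turned. They were the targets of the array's probes, matched letter for letter to RefSeq mature miRNAs (GRCh38.p14), and capitals mark the seed. The first set holds the 5 miRNAs that stood lowest in HepG2-Twist1, by 2-fold or more.
miR-140-3p: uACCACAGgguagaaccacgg
miR-19b-3p: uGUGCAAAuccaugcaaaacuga
miR-1246: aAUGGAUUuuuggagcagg
miR-1260b: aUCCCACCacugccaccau
miR-3613-3p: aCAAAAAAaaaagcccaacccuuc

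The second set holds miRNAs with nearly the same sequence, shown so that their ratios can be read against the bases that separate them. A difference such as C11U gives the base of the miRNA named first, its position counted from the 5′ end starting at 1, and the base of the other.
miR-26a-5p: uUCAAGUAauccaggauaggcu
miR-26b-5p: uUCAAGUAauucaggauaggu
miR-19a-3p: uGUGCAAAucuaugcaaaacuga
miR-1260a: aUCCCACCucugccacca
miR-20a-5p: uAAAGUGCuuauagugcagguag
miR-20b-5p: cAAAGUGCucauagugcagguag
miR-17-5p: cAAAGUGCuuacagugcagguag
miR-106a-5p: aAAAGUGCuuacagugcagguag
miR-181a-5p: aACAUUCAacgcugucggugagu
miR-181b-5p: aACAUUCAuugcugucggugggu
miR-30a-5p: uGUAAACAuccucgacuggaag
miR-30e-5p: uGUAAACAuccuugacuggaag

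The third set holds the 6 miRNAs that led the higher side among bright ones, 3 of the let-7 family and 3 rich in G and C. Beside them is miR-98-5p, a let-7 relative on the lower side.
let-7i-5p: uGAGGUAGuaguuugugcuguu
let-7b-5p: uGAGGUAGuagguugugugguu
let-7a-5p: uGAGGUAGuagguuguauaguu
miR-98-5p: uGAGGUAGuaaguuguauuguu
miR-638: aGGGAUCGcgggcggguggcggccu
miR-1915-3p: cCCCAGGGcgacgcggcggg
miR-3665: aGCAGGUGcggggcggcg

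Most of the 278 miRNAs had nearly the same intensity in both lines. The log2 ratio of HepG2-Twist1 over HepG2-vector, the mean over the 3 spots after normalization, had a median of −0.02 and an SD of 0.30 over the miRNAs. A total of 262 miRNAs (94.2%) lay within 1.5-fold and 218 within 1.2-fold. The SD of the 3 spots, which is technical error within the array, had a median of 0.09. All 3 spots were on the same side of 0 for 168 miRNAs, 97 of them below and 71 above. There were 151 miRNAs below 0 and 127 above.

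Of the 278, 259 reached 32 in HepG2-vector, 253 in HepG2-Twist1 and 234 in both. The 25 that reached it only in HepG2-vector were all dim, the brightest being miR-101-3p, an EMT-restraining miRNA, at 46.45 against 26.48 in the authors' values. The 19 that reached it only in HepG2-Twist1 were led by miR-1228-5p, at 46.82 against 28.08. None of these miRNAs reached 64 in the brighter line, so no miRNA crossed the threshold by a wide margin. At the edge of the threshold, miR-1208 (23.95 in HepG2-vector and 32.29 in HepG2-Twist1), miR-4258 (32.33 and 25.92) and miR-181a-2-3p (32.44 and 19.84) were just inside. Just outside were miR-328-3p (31.84 and 31.62), miR-505 (31.83 and 21.1) and let-7e-3p (29.53 and 31.62).

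Most probes were close to background. The median miRNA spot read 116 in the Cy3 channel against 105.0 for the median of 20 empty spots, and 40.5 against 38.0 in the Cy5 channel. Some 139 of the 278 miRNAs had a normalized intensity of at least 100 in both lines, and 67 of at least 1000. Liver miRNAs were mixed. miR-192-5p (356 in HepG2-vector and 367 in HepG2-Twist1) and miR-194-5p (113 and 109) were among the 278. miR-122-5p, the defining miRNA of hepatocytes, was not, at 20.5 and 17.2, nor was miR-885-5p, so of the 4 hepatocyte markers 2 were among the 278. None of 5 blood, 5 fibroblast and smooth muscle, 6 muscle or 8 pluripotent cell markers was among them. The endothelial miR-126-3p was, at 144 and 121, as were 3 of 5 neuronal markers.

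**Figure D1:**
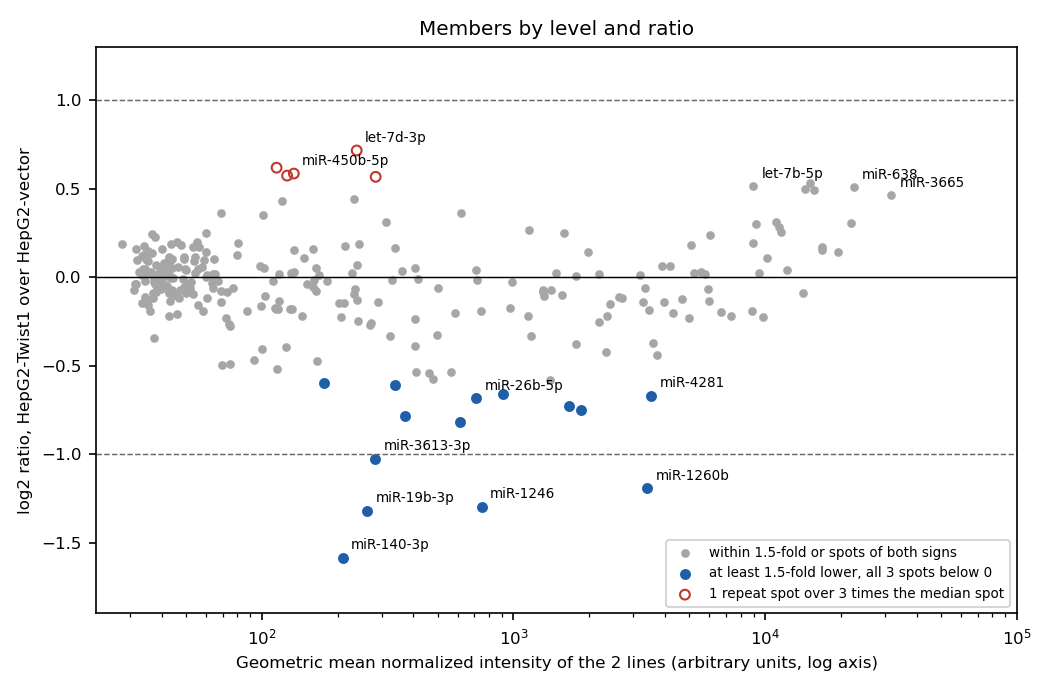
Each of the 278 points is a miRNA, with the geometric mean of its normalized intensity in HepG2-vector and HepG2-Twist1 on the x axis (log scale) and its log2 ratio on the y axis. Dashed lines mark 2-fold. The 14 blue points lie at least 1.5-fold below 0, the 5 red circles are miRNAs in which a single spot was over 3 times the median spot, and the points above 10000 lie mostly above 0.

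In HepG2-Twist1, 5 miRNAs were lower by 2-fold or more with all 3 spots below 0, and none was higher by that much. These were 1.80% of the 278 and 0.413% of all 1212 miRNAs on the array, against 0.0% of all 1212 on the higher side. Sizes alone made these calls, since each line had 1 sample. The ratios are on a scale that holds an offset of 50, which brings the ratios of dim miRNAs closer to 0. None of the 934 other miRNAs on the array, which were below 32 in both lines, reached even 1.5-fold. The offset left miRNAs this dim little room to do so, and the shares of all 1212 include them.

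miR-140-3p, known in cartilage and encoded within the gene WWP2 (chr16:69933142-69933162, GRCh38.p14), had the lowest ratio. Its spots read 453, 404 and 394 in HepG2-vector and 98.5, 119 and 99.8 in HepG2-Twist1. The spots of the lines did not overlap, and the log2 ratio was −1.59 ± 0.17 (SD of 3 spots). The other arm of the same hairpin, miR-140-5p, was at 15.6 and 14.3, below the threshold.

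miR-19b-3p, a member of the oncogenic miR-17-92 cluster, read 524, 445 and 393 in HepG2-vector and 152, 147 and 154 in HepG2-Twist1. Its log2 ratio was −1.32 ± 0.19 (SD of 3 spots), and the lowest control spot was above every spot of HepG2-Twist1. The same mature sequence is encoded at chr13:91351245-91351267 in MIR17HG and at chrX:134169683-134169705 in MIR106AHG, which the probe cannot tell apart.

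miR-1246, whose sequence is also found in U2 small nuclear RNA, read 1322, 1238 and 1063 in HepG2-vector and 548, 417 and 425 in HepG2-Twist1 (log2 ratio −1.30 ± 0.15). It is annotated at chr2:176601024-176601042. miR-1260b, annotated at chr11:96341447-96341465 inside MAML2 and listed among small RNAs that resemble tRNA pieces, read 5126, 5190.2 and 5185 against 2253.5, 2108 and 2336 (log2 ratio −1.19 ± 0.08). It was the brightest of the 5, and its 3 spots lay closest together.

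miR-3613-3p, encoded at chr13:49996426-49996449 in DLEU2, the host of miR-15a and miR-16, was the least firm of the 5. Its spots were spread widely in both lines, reading 629, 405 and 271 in HepG2-vector and 233, 189 and 124 in HepG2-Twist1. The log2 ratio was −1.03 ± 0.21, and it was the one of the 5 that dropped under 2-fold in the authors' values (−0.83) and under cyclic loess over both arrays.

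A size of 1.5-fold or more on the lower side, with all spots below 0, was met by these 5 and 9 more, together 14 miRNAs, 5.04% of the 278 and 1.16% of all 1212. On the higher side 2 passed it, 0.719% of the 278 and 0.165% of all 1212. The balance depended on the normalization, with 9 lower and 5 higher under cyclic loess over both arrays, 22 lower and 9 higher after centring alone, and 18 lower and 7 higher after subtraction of the median empty spot. In the authors' values, where spots are not given, 15 were lower and 12 higher, and without normalization 260 were lower and none higher. The median of all 278 was then −0.97. All 14 lower miRNAs were also lower after centring and without normalization, and 9 of them under cyclic loess, where miR-26b-5p, miR-20b-5p, miR-149-3p, miR-378 and miR-186 were short of 1.5-fold. In the authors' values 8 of the 14 passed, and miR-26b-5p, miR-20b-5p, miR-149-3p, miR-378, miR-4284 and miR-3141 did not. Over all 278, 229 kept their side of 0 in the authors' values.

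miR-26b-5p, which restrains EMT and is encoded within CTDSP1, the gene of a small phosphatase (chr2:218402657-218402677), was among the 9. Its spots read 922, 941 and 879.9 in HepG2-vector and 519.7, 561 and 571 in HepG2-Twist1, with a log2 ratio of −0.68 ± 0.09. That ratio was −0.51 under cyclic loess, −0.54 with loess fitted on the 278 miRNAs only, −0.55 after empty-spot subtraction and −0.50 in the authors' values, each short of 1.5-fold. miR-181b-5p, of a family known for promoting stem-like liver cancer cells, read 489, 514 and 514 against 255, 260.2 and 304 (−0.79 ± 0.10). miR-20b-5p, of the miR-17 seed family, read 1363, 1108 and 979.9 against 894, 703 and 549 (−0.66 ± 0.11), and stood at −0.45 under cyclic loess and −0.37 in the authors' values. In each of these 3 the lowest spot of HepG2-vector was above the highest spot of HepG2-Twist1.

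The other 6 were miR-4284 (−0.82 ± 0.08), miR-3141 (−0.75 ± 0.13), miR-149-3p (−0.73 ± 0.03), miR-4281 (−0.67 ± 0.08), miR-378 (−0.61 ± 0.04) and miR-186 (−0.60 ± 0.23). miR-149-3p, the G-rich arm of its hairpin, read 2162 against 1287, while the partner arm miR-149-5p was dim, at 42.3 against 45.4. miR-30b, at −0.58 ± 0.06, was just short of 1.5-fold. All 14 kept a ratio below 0 under each alternative that was run.

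**Figure D2:**
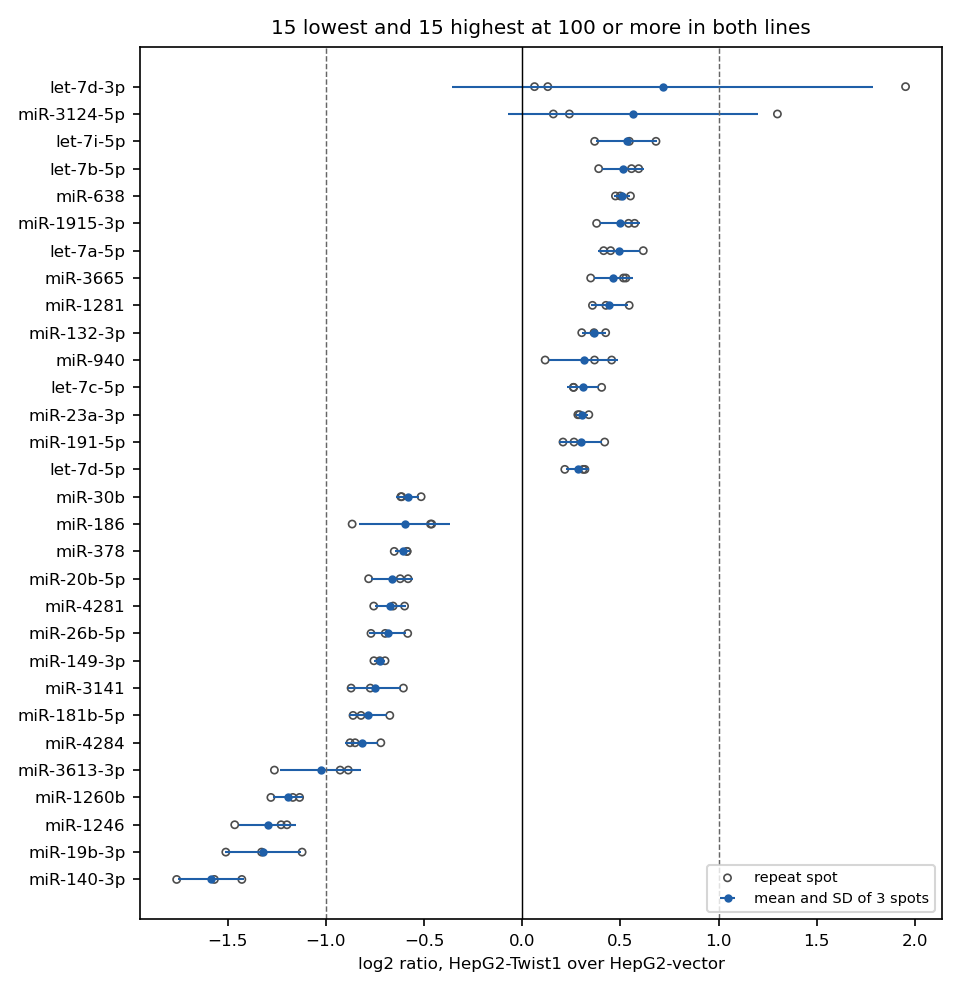
The log2 ratio of HepG2-Twist1 over HepG2-vector on the x axis is shown for the 15 lowest and 15 highest miRNAs that had at least 100 in both lines and all spots on one side of 0. Open circles are the 3 repeat spots, filled points and bars their mean and SD, and dashed lines mark 2-fold. The lower miRNAs have means from −1.59 to −0.58 with all spots below 0, while let-7d-3p and miR-3124-5p at the top each rest on 1 spot.

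Both miRNAs that passed 1.5-fold on the higher side owed it to a single spot. let-7d-3p, the minor arm of a let-7 hairpin, read 162, 132 and 167 in HepG2-vector and 171, 149 and 789 in HepG2-Twist1, with log2 ratios of 0.06, 0.13 and 1.95. Without the third spot its ratio was 0.10. miR-218-5p read 146, 20.7 and 14.9 against 607.5, 22.1 and 18.7, and without the first spot its ratio was 0.05. With the median of the spots, or with such spots left out, no miRNA was 1.5-fold higher.

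A further 3 miRNAs had 1 spot over 3 times the median of its probe in the scanner values. miR-450b-5p read 185, 16.6 and 10.1 in HepG2-vector and 736, 17.9 and 9.46 in HepG2-Twist1. miR-3713 read 23.8, 21.6 and 161 against 23.2, 21.8 and 648. miR-3124-5p read 38.6, 478 and 23.9 against 48.9, 1251 and 37.3. The spot was bright in both channels each time, at a different repeat position for different miRNAs. In the authors' values, which hold no repeat spots, miR-218-5p (log2 ratio 2.17), miR-3713 (2.08) and miR-450b-5p (2.26) were the 3 miRNAs at least 2-fold higher, and miR-3124-5p stood at −2.12.

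Several bright probes were among the leaders of the higher side, with small ratios. let-7i-5p, which Twist1 is known to repress in other cancer cells, read 13019, 12507 and 11949 in HepG2-vector and 16829, 20090 and 17466 in HepG2-Twist1 (0.53 ± 0.16). let-7b-5p read 7851, 7522 and 7118 against 11871, 9869 and 10494 (0.51 ± 0.11). miR-638, a G- and C-rich miRNA from DNM2, read 19184, 18144 and 19231 against 28139, 25239 and 27208 (0.51 ± 0.04). In all 3 the spots of the lines did not overlap, and none reached 1.5-fold.

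miR-1915-3p (0.50 ± 0.10), let-7a-5p (0.49 ± 0.11), miR-3665 (0.46 ± 0.10), let-7c-5p (0.31 ± 0.08), miR-23a-3p (0.30 ± 0.03), miR-191-5p (0.30 ± 0.11) and let-7d-5p (0.28 ± 0.06) followed. These bright miRNAs were above 0 under every scaling tried except no normalization, where all stood below 0 with a median of all miRNAs of −0.97, and except that miR-23a-3p (−0.07) and miR-3665 (−0.00) were not above 0 in the authors' values. Of the 15 miRNAs at 10000 or more, 14 were above 0 with a median of 0.28. The median was 0.13 under cyclic loess, 0.10 with loess fitted on the 278 miRNAs only and 0.00 in the authors' values, so the size of this shift moved with the normalization. From 300 to 1000, 22 of 28 miRNAs were below 0 with a median of −0.22, against −0.05 under cyclic loess and 0.04 in the authors' values.

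The remaining ranges held 130 miRNAs under 100 (median 0.01, 62 below 0), 53 from 100 to 300 (−0.07, 32 below 0), 23 from 1000 to 3000 (−0.11, 17 below 0) and 29 from 3000 to 10000 (−0.12, 17 below 0). The 15 brightest miRNAs of HepG2-vector took 47.8% of the summed intensity there and 54.2% in HepG2-Twist1, and 14 of them were also among the 15 brightest of HepG2-Twist1. They were led in HepG2-vector by miR-3665 (26980 against 37276 in HepG2-Twist1), miR-23a-3p (19724 against 24381), miR-638, miR-23b (18551 against 20469) and miR-3656 (15897 against 17715). miR-21-5p, an oncogenic miRNA of liver cancer, read 14607 against 13835 (−0.09 ± 0.18), with spots on both sides of 0.

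Between 100 and 1000 in both lines, miR-132-3p and miR-1281 led the higher side among miRNAs with tight spots. miR-132-3p, induced by neuronal activity and growth factors, read 597, 547 and 482 in HepG2-vector and 784, 687 and 665 in HepG2-Twist1 (0.36 ± 0.06). miR-1281 read 205, 211 and 162 against 292, 284 and 259.7 (0.44 ± 0.09). The groups of spots did not overlap for either. Both were above 0 under every scaling but no normalization, and their log2 ratios in the authors' values were 0.71 and 0.73. miR-212-3p, which shares the seed of miR-132-3p and lies beside it in the genome, had a smaller ratio of 0.15.

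**Figure D3:**
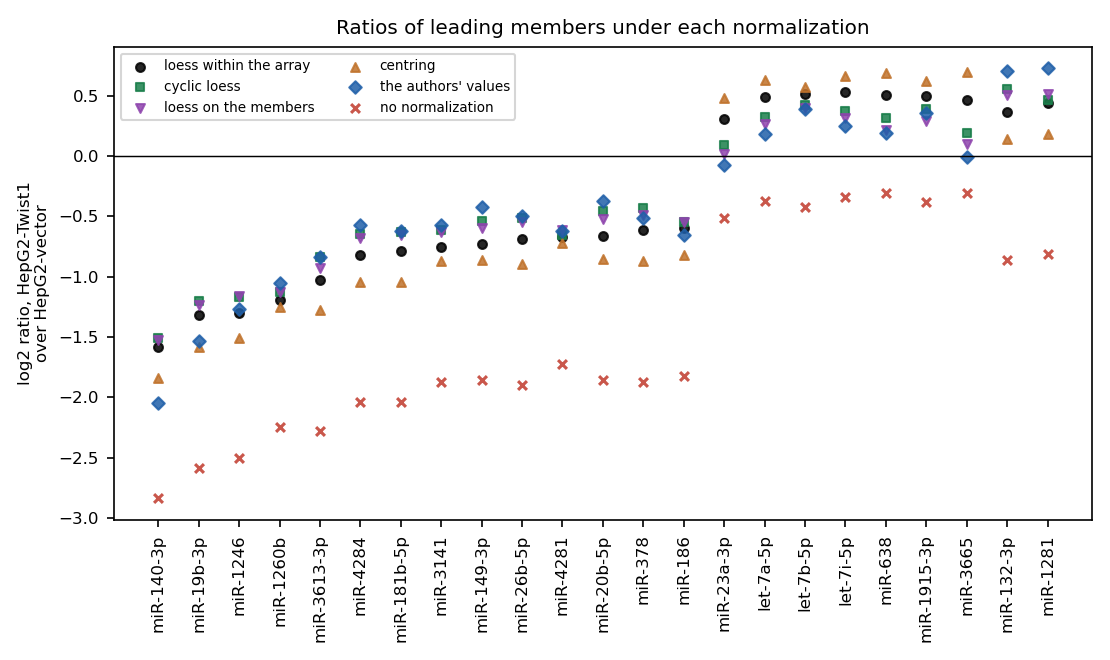
The log2 ratio on the y axis is shown for the 14 miRNAs at least 1.5-fold lower and 9 of the higher side, with a marker for each normalization. Without normalization all 23 lie below 0, and otherwise the 14 stay below 0 while miR-23a-3p and miR-3665 reach 0 or less in the authors' values.

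Families that share a seed were compared next. Of the 22 seeds carried by at least 2 miRNAs at 100 or more in both lines, several pairs had almost the same ratio. miR-27a-3p and miR-27b-3p (−0.19 and −0.21), miR-103a-3p and miR-107 (−0.10 and −0.08), miR-18a-5p and miR-18b-5p (−0.06 and −0.04) and miR-221-3p and miR-222-3p (−0.18 and −0.15) had gaps of 0.01 to 0.02. In the authors' values the miR-27 pair stayed below 0, and these 3 other pairs stood above it.

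Other families split. miR-26a-5p, with the seed of miR-26b-5p and the differences C11U and C21U, read 4767 against 5422 (0.18 ± 0.04), a ratio 0.87 above that of miR-26b-5p. It is encoded at 2 sites, in CTDSPL and CTDSP2, the relatives of the host of miR-26b. miR-19a-3p, with the single difference U11C to miR-19b-3p, was dim, at 49.5 against 28.3 (−0.34 ± 0.07). miR-1260a, with U9A to miR-1260b and a shorter 3′ end, was also dim, at 53.4 against 39.5 (−0.21 ± 0.07). For both dim miRNAs the offset holds the ratio near 0, so their distance from the bright relative is not a measured difference in fold.

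In the miR-17 seed family, which promotes the cell cycle, 4 of 6 were below 0 with all spots and 2 had spots on both sides, with a median of −0.31 (−0.23 under cyclic loess and −0.15 in the authors' values). The lowest were miR-20b-5p (−0.66 ± 0.11) and miR-17-5p (−0.44 ± 0.05). miR-106a-5p (−0.37 ± 0.07) differs from miR-17-5p by C1A alone, and its ratio was 0.07 away. miR-20a-5p (0.03 ± 0.13) and miR-106b-5p (0.02 ± 0.07) stood at 0. Probes this alike can bind each other's targets, and cross-hybridisation was not tested.

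In the miR-30 family, known for holding cells in an epithelial state, miR-30b (−0.58 ± 0.06) and miR-30e-5p (−0.54 ± 0.19) were below 0 with all spots. miR-30a-5p (0.01 ± 0.14), which differs from miR-30e-5p by C13U, and miR-30d (0.02 ± 0.11) were at 0, and miR-30c-5p was at 0.24 ± 0.16. The 4 miRNAs of the miR-181 family were all below 0 with all spots, at −0.79 for miR-181b-5p, −0.52 for miR-181d-5p, −0.21 for miR-181a-5p and −0.06 for miR-181c-5p, except that miR-181a-5p stood at 0.07 in the authors' values. miR-181a-5p differs from miR-181b-5p by A9U, C10U and A21G.

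The let-7 family, known for restraining RAS, HMGA2 and LIN28, had 6 of 9 miRNAs above 0, all with all 3 spots, and a median of 0.28. Among these, let-7a-5p, let-7c-5p, let-7d-5p, let-7f-5p and let-7i-5p were at 10000 or more. The 15 miRNAs at that level include these, and the median of 0.28 is the ratio of let-7d-5p in both sets. Of the 15, 14 were above 0, among them miR-638, miR-1915-3p and miR-3665. A ratio above 0 was thus not particular to let-7, and the bright miRNAs outside let-7 were not summarised apart. let-7e-5p (−0.19 ± 0.10) and miR-98-5p (−0.33 ± 0.07) were below 0 with all spots, though miR-98-5p stood at 0.08 in the authors' values, and let-7g-5p (−0.07 ± 0.14) was mixed. The median was 0.16 under cyclic loess and 0.08 in the authors' values, and −0.63 without normalization. None of the 9 reached 1.5-fold. The seed UCACAUU had the widest gap, from miR-23c at −0.57 ± 0.11 to miR-23a-3p at 0.30 ± 0.03, with miR-23b at 0.14 ± 0.02 (−0.20 in the authors' values).

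**Figure D4:**
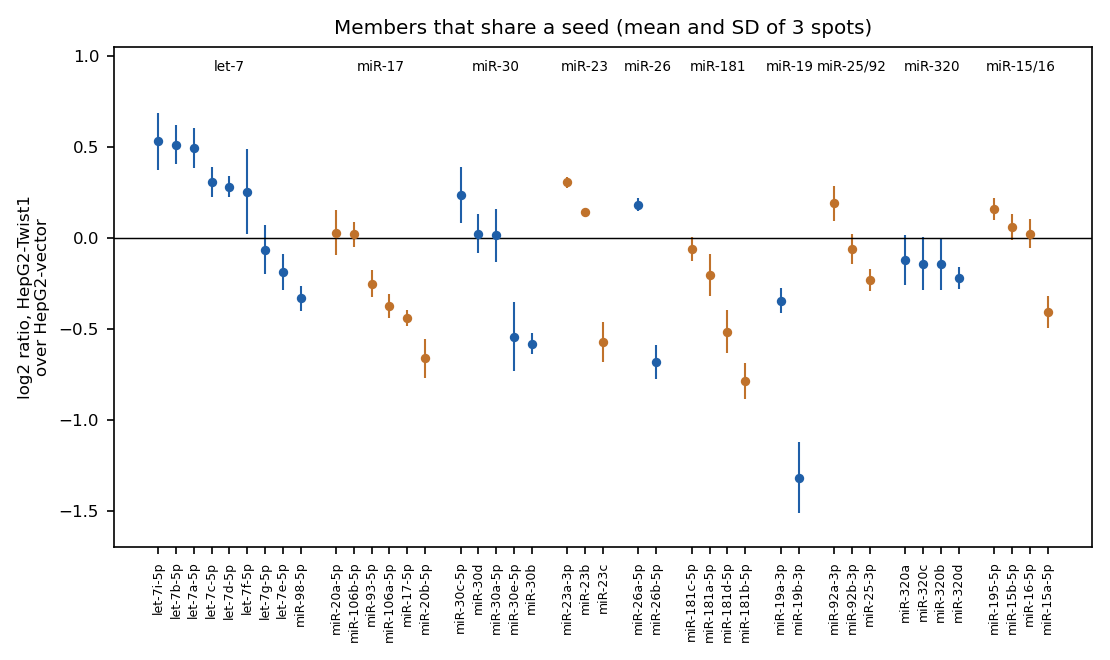
The log2 ratio on the y axis is shown with the SD of 3 spots for the miRNAs of 10 seed families, in order of ratio within each family. The 4 miR-320 miRNAs with the same seed lie in a narrow band from −0.22 to −0.12, while the let-7, miR-30 and miR-26 families spread over both sides of 0. miR-19a-3p is dim, and the offset holds its ratio near 0.

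miRNAs of the same primary transcript often had unlike ratios. In MIR17HG on chromosome 13, in 5′ to 3′ order, the ratios were −0.44 for miR-17-5p, −0.06 for miR-18a-5p, −0.34 for miR-19a-3p, 0.03 for miR-20a-5p, −1.32 for miR-19b-3p and 0.19 for miR-92a-3p. miR-19a-3p was dim (49.5 against 28.3), so the offset shrank its ratio. The related transcript MIR106AHG on the X chromosome gave −0.37 for miR-106a-5p, −0.04 for miR-18b-5p and −0.66 for miR-20b-5p before the shared miR-19b-3p and miR-92a-3p. Of the miRNAs named for these transcripts, miR-19b-3p alone passed 2-fold.

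The third relative, in MCM7 on chromosome 7, gave 0.02 for miR-106b-5p, −0.25 for miR-93-5p and −0.23 for miR-25-3p. In MIR23AHG, miR-23a-3p was at 0.30, miR-27a-3p at −0.19 and miR-24-3p at 0.02. In the authors' values each of them was lower in HepG2-Twist1, so this split moved with the processing. In MIR99AHG on chromosome 21, miR-99a-5p was at −0.26 and let-7c-5p at 0.31, both with all spots on one side. In HUWE1 on the X chromosome, miR-98-5p was at −0.33 and let-7f-5p, which also has a copy on chromosome 9, at 0.25. The authors' values put both slightly higher in HepG2-Twist1, at 364.9 against 386.25 for miR-98-5p and 11179 against 11455.4 for let-7f-5p.

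Some neighbours had like ratios. miR-191-5p (0.30), miR-191-3p (0.43) and miR-425-3p (0.20), which lie together in DALRD3 on chromosome 3, were all above 0 with all spots. let-7a-5p and let-7b-5p, neighbours in MIRLET7BHG on chromosome 22, were at 0.49 and 0.51, but at 0.18 and 0.39 in the authors' values, and let-7a-5p is also encoded on chromosomes 9 and 11. Other neighbours differed. miR-181a-5p and miR-181b-5p share both of their transcripts but were at −0.21 and −0.79, and miR-183-5p (0.04) and miR-182-5p (−0.42) lie together on chromosome 7.

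**Figure D5:**
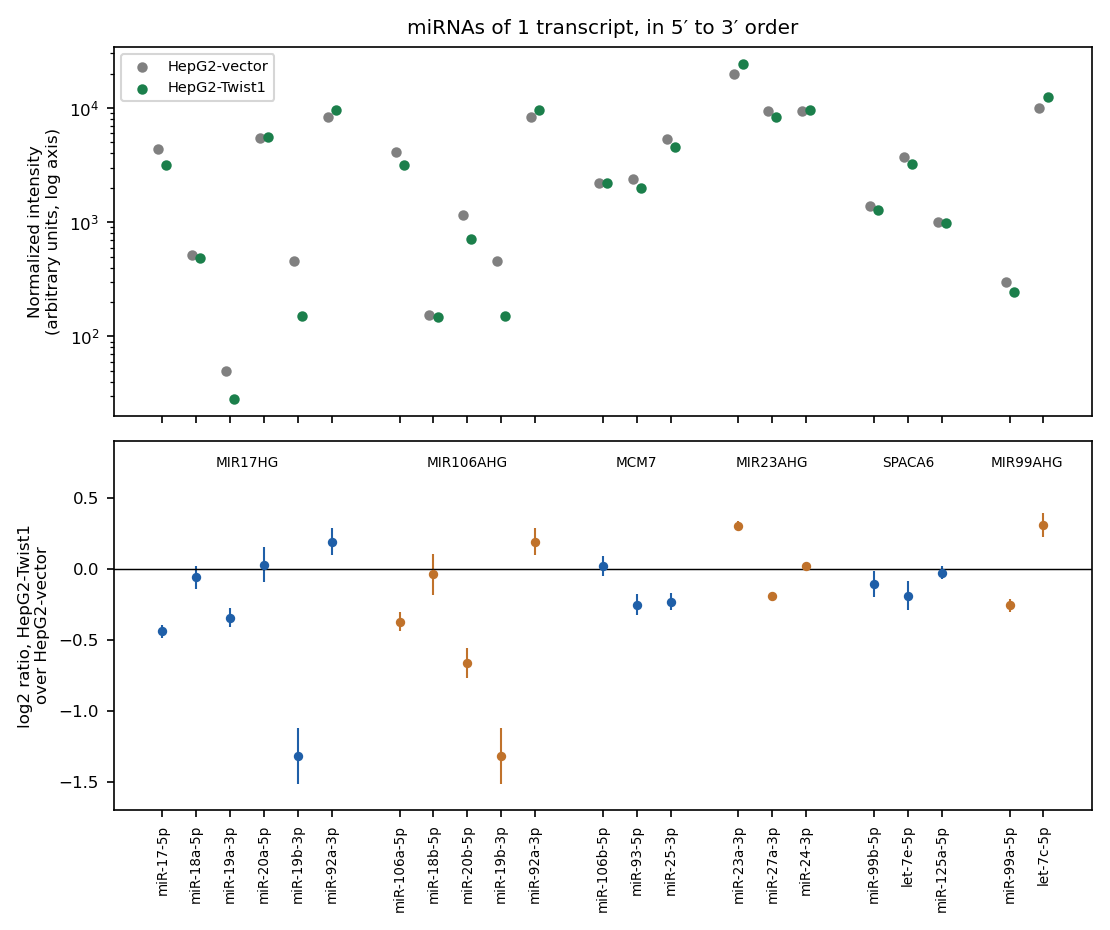
The upper panel shows the normalized intensity (log axis) in HepG2-vector and HepG2-Twist1, and the lower panel the log2 ratio with the SD of 3 spots, for miRNAs of 6 transcripts in 5′ to 3′ order. miR-19b-3p and miR-92a-3p are drawn under both transcripts that encode them. The ratios in MIR17HG run from −1.32 to 0.19.

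The miR-200 family, which holds epithelial cells in their state by repressing ZEB factors, was below the threshold in both lines, with 0 of 5 among the 278. miR-200c-3p, the brightest, stood at 23.81 in HepG2-vector and 31.58 in HepG2-Twist1 in the authors' values. Of the 8 other EMT-restraining miRNAs, 6 reached the threshold, with 4 below 0 with all spots, against 97 of all 278. Their median was −0.14 (−0.05 under cyclic loess and −0.27 in the authors' values). They were miR-26b-5p (−0.68), miR-101-3p (−0.22), miR-203a-3p (−0.15), miR-138-5p (−0.13), miR-34a-5p (−0.07) and miR-30a-5p (0.01). Of these, miR-26b-5p alone passed 1.5-fold, a call lost under cyclic loess and in the authors' values, against 5.04% of all 278.

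Of 9 EMT-promoting miRNAs, 6 reached the threshold, from −0.18 to 0.03, and none passed 1.5-fold. Their median of −0.09 stood at 0.01 under cyclic loess and 0.02 in the authors' values. Of 8 miRNAs linked to Twist1, 4 reached the threshold. Apart from let-7i-5p they were dim, with miR-424-5p at 65.8 against 55.5 (−0.12 ± 0.20, but −0.39 after empty-spot subtraction and −0.55 in the authors' values), miR-424-3p at 0.04 and miR-503-5p at 0.02. miR-10b-5p, a known Twist1 target in breast cancer, stood at 18.28 and 15.66 in the authors' values, below the threshold.

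Of 7 liver-enriched miRNAs, 5 reached the threshold, led by miR-22-3p (472 against 349, −0.39 ± 0.05), and the others lay between −0.14 and 0.03. All 27 listed miRNAs of the imprinted cluster at 14q32 were on the array, but none reached the threshold. Of 6 miRNAs that p53 is known to induce, 3 reached the threshold, between −0.07 and 0.03.

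All 8 array miRNAs whose sequence lies in tRNA, small nuclear RNA or vault RNA were measured. Against 151 of all 278 miRNAs below 0, 97 with all spots, 7 of these 8 were below 0, 5 with all spots. Their median was −0.17 (−0.09 under cyclic loess and −0.23 in the authors' values). Besides miR-1246 and miR-1260b they were miR-1280 (10558 against 9074, −0.23 ± 0.14), miR-1260a, miR-1274b (−0.13 ± 0.05), miR-1274a (−0.04 ± 0.08), miR-3676 (−0.00 ± 0.05) and miR-720 (9788 against 10558, 0.11 ± 0.02). The 19 miRNAs with at least 80% G and C had a median of 0.01 (−0.02 in the authors' values), with 9 below 0 and 10 above. The 36 passenger strands, by their starred names, were evenly split at 18 each way.

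The same comparison with Bcl-2 in both lines was made on a second array with the dyes the other way round, HepG2-Twist1/Bcl-2 in Cy3 and HepG2-Bcl-2 in Cy5. Of the 14 miRNAs at least 1.5-fold lower in HepG2-Twist1, 4 were also below 0 there with all spots, 8 were above 0 with all spots and 2 were mixed. The same counts were not made over all miRNAs of that array, so they do not show whether the 14 differed from the rest. miR-19b-3p (−1.13 ± 0.15), miR-20b-5p (−2.0 ± 0.34), miR-149-3p (−0.84 ± 0.29) and miR-4284 (−0.23 ± 0.04) were the 4. miR-140-3p was at 0.40 ± 0.18 and miR-1246 at 0.46 ± 0.27. miR-1260b, miR-4281 and miR-26b-5p, which are among the 8, stood further above 0, with values under the results flagged for a closer look. Bcl-2 and dye orientation differ together between the arrays, so their parts cannot be told apart.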

How the data were processed

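Total RNA of HepG2-vector (Cy3) and HepG2-Twist1 (Cy5) was hybridised to 1 two-colour miRNA array. The authors deposited scanner tables of linear spot intensities and a table of intensity values normalized by cyclic LOWESS per the study's methods, which still holds miRNAs below the study's threshold of 32. No column held the authors' own comparisons. Here normexp (offset 50) was fitted to the 3636 miRNA and 332 control spots of each channel, followed by loess within the array (span 0.3, 4 iterations, control spots at weight 0), with limma 3.58.1 in R 4.3.3 and pandas 2.3.3 in Python 3.11.15. Ratios are means of 3 repeat spots on the log2 scale with the offset, and normalized intensity is the linear value less the offset.

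The 278 miRNAs and the lists were chosen with earlier results of these data known. Calls went by size, at 2-fold or 1.5-fold with all 3 spots of one sign. Named miRNAs were those past 2-fold, the 15 lowest and 15 highest at 100 or more in both lines with all spots of one sign, the 15 brightest, list and seed relatives, those the study names and those at the threshold. Of the 278, 238 took their names from RefSeq and 40 kept array names. Neighbours lay within 10 kb. Alternatives were other normalizations, backgrounds, minimums, spots and the authors' values.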

Additional observations from a re-analysis of the deposited data

Results flagged for a closer look

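Of the 14 miRNAs at least 1.5-fold lower in HepG2-Twist1, 8 had ratios above 0 with all 3 spots when both lines carried Bcl-2. The 3 miRNAs flagged here are among these 8. The ratio without Bcl-2 minus that with Bcl-2 was −3.12 on the log2 scale for miR-1260b (−1.19 against 1.92), −2.84 for miR-4281 (−0.67 against 2.17) and −1.84 for miR-26b-5p (−0.68 against 1.16). With 1 sample per line the difference was not tested. The dyes of the lines with and without Twist1 were also exchanged between the arrays, so Bcl-2 and dye cannot be told apart.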

How the results depend on the processing

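The 5 miRNAs at least 2-fold lower became 4 to 7 under all alternatives except no normalization, with 131, and miR-3613-3p was the one lost where the count was 4. Leaving out a repeat spot position gave 4 to 5. None was 2-fold higher, but 1 was after subtraction of the median empty spot, 3 were in the authors' values, and 0 to 1 with a spot position left out. The 14 at least 1.5-fold lower became 9 under cyclic loess, 22 after centring and 260 without normalization, and 15 to 16 with a position left out. The 2 at least 1.5-fold higher became 5 under cyclic loess, 9 after centring, 0 without normalization, 7 after empty-spot subtraction, 12 in the authors' values, 1 at a minimum of 100, 0 with the median of the spots and 2 to 4 with a position left out. Leaving out the single bright spots, chosen after seeing the data, gave 0. The cause of these shifts was not tested. A t-test on the repeat spots at the threshold of the study's methods, which describe a test between groups of samples, gave 39 miRNAs, 27 lower and 12 higher, and 5 after Benjamini-Hochberg adjustment. It describes the 2 hybridised samples and is no test between the lines. No paired analysis was possible because each line had 1 sample. Signal over background limits the 139 miRNAs under 100 in at least 1 line, and the number of arrays limits the precision of all values.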
